A study of Mus musculus with 18 samples.

Results

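The miR-34 family was examined in mouse articular cartilage after ACL rupture, a load-induced model of post-traumatic osteoarthritis in which the anterior cruciate ligament (ACL) of the knee is torn. The family was represented by 5 of the 1412 mature miRNAs in the count table, which were picked by name: miR-34a-5p from the miR-34a locus, and miR-34b-5p, miR-34b-3p, miR-34c-5p and miR-34c-3p from the miR-34b/c locus. The suffixes 5p and 3p name the arms of the hairpin from which the mature strand is cut. The family was selected with its levels in day 7 injured cartilage already known. Every comparison that involves day 7 injured libraries is therefore given below as a description with no p-value. Tests are reserved for comparisons among the other groups, some of which were the references in that choice.

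The 18 small RNA libraries were made from femoral condyle cartilage of male wild-type C57bl6 mice aged 12 weeks. The right knee of injured mice received a 12 N load that ruptured the ACL, and cartilage was taken from this knee at day 1 (day 1 injured, n = 3) or at day 7 (day 7 injured, n = 3). The unloaded left knees of injured mice were collected at day 1 (day 1 contralateral, n = 3) and at day 7 (day 7 contralateral, n = 3), from mice given the same anaesthesia, analgesia and opposite-limb load. Naïve mice that received no load gave the remaining libraries, all labelled day 7 (n = 6). Comparisons of day 1 libraries with naïve cartilage therefore cross collection days. Each library was a pool of cartilage from several mice, and the sources differ on how many. The study's methods count 6 mice with a ruptured ACL at day 1 and 12 at day 7. A note on its design gives partial cartilage loss by day 7 as the reason for pooling more animals. Pool size by that count, and the amount of cartilage left, thus differ between days. Their part in the day 7 values was not tested. The study's methods count 6 naïve mice, whose left and right knees were pooled apart. By that count the 6 naïve libraries share mice. The p-values measure the spread between pools. They and the SDs treat all pools as independent, which by that count the naïve pools were not. Injured and contralateral libraries of a day also came from the same mice, and the tests between them leave out this pairing.

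miR-34 miRNAs are best known as direct transcriptional targets of the tumour suppressor p53, and they repress cell cycle and survival genes such as cyclin-dependent kinases and Bcl2. miR-34a is transcribed from a gene of its own, whereas miR-34b and miR-34c are processed from a shared primary transcript. miR-34b/c, together with the miR-449 family, is also abundant in multiciliated epithelium. A miRNA finds its targets mainly through its seed, bases 2 to 8 counted from the 5′ end.

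The sequences are shown because the shared seed is what defines the family, and because the 3p arms carry a different one. Mature sequences were taken from RefSeq (GRCm38.p6) for 4 of the 5 arms, all but miR-34c-5p, and for miR-449a-5p, with the seed in capitals.
mmu-miR-34a-5p: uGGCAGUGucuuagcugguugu
mmu-miR-34b-5p: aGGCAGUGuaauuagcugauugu
mmu-miR-449a-5p: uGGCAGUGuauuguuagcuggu
mmu-miR-34b-3p: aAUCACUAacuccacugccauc
mmu-miR-34c-3p: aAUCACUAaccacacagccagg
The first 3 sequences share the seed GGCAGUG, and the 3p arms of miR-34b and miR-34c share the seed AUCACUA with each other.

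The miR-34a-5p sequence lies at chr4:150068473-150068494 on the plus strand (GRCm38.p6), in a hairpin that overlaps no protein-coding gene in GENCODE vM21 and whose end overlaps an exon of the unclassified transcript Gm37795 on the same strand. miR-34b-5p lies at chr9:51103610-51103632 and miR-34b-3p at chr9:51103574-51103595, both on the minus strand. miR-34c-3p lies at chr9:51103044-51103065 on the same strand, downstream of Mir34b. The Mir34b and Mir34c hairpins both lie within an intron of the protein-coding gene Btg4, which is transcribed from the opposite strand.

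The libraries held between 758388 counts (day 7 injured replicate 1) and 4088852 counts, and 428 miRNAs passed the filter on low counts, all 5 family arms among them. Levels are given as CPM, the read count relative to a library size that was scaled by TMM (trimmed mean of M values). miR-140-5p, the defining miRNA of cartilage, was present at 1911.9 to 6994.7 CPM in all libraries, and miR-140-3p at 2082 to 3250 CPM. The libraries also held miRNAs of skeletal muscle: the summed level of 5 of 5 listed muscle miRNAs ran from 67506 to 198890 CPM in naïve and from 69623 to 133930 CPM in day 7 injured libraries. Day 7 contralateral replicate 1 stood apart from the other libraries of its group in several family measures, and the values it moved most are also given without it.

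miR-34c-5p was the most abundant arm, at a mean of 92.5 CPM over the 18 libraries. The family thus sits in the middle and lower part of the miRNA profile of this cartilage. miR-34a-5p had a mean of 20.5 CPM, miR-34b-3p of 12.9 CPM, miR-34b-5p of 12.6 CPM and miR-34c-3p of 4.51 CPM, at ranks 281, 310, 314 and 390 of the 428 tested miRNAs. This order pools groups that differ by arm, and in day 7 injured libraries the mean of miR-34a-5p (28.4 CPM) lay below those of miR-34b-3p (41.0 CPM) and miR-34b-5p (39.0 CPM). Mature strands are nearly equal in length, so these levels were not divided by it, but the efficiency with which each strand is ligated and sequenced was not measured, and levels of different arms are compared here as read counts only. The partner strand miR-34a-3p had 1 count in all 18 libraries together, in day 7 contralateral replicate 3, and its count of 0 in the 3 day 7 injured libraries allows up to 4.12, 1.36 and 0.996 CPM (3 counts in replicates 1, 2 and 3).

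miR-34c-5p, the main product of the miR-34b/c locus, was at 266.5, 279.7 and 361.3 CPM in the 3 day 7 injured libraries. The naïve libraries ran from 25.2 through a median of 43.7 to 54.3 CPM. The day 7 contralateral libraries were at 40.2, 67.8 and 90.7 CPM, the day 1 injured libraries at 38.5, 48.1 and 58.0 CPM, and the day 1 contralateral libraries at 35.5, 52.4 and 69.0 CPM. Every day 7 injured library lay above every other library, and the other 4 groups overlapped each other. In order of their means the groups were day 7 injured (303 ± 51.4 CPM, SD, n = 3), day 7 contralateral (66.2 ± 25.3, n = 3), day 1 contralateral (52.3 ± 16.8, n = 3), day 1 injured (48.2 ± 9.72, n = 3) and naïve (42.8 ± 11.1, n = 6). Neighbours after the first in this order differed by less than 1 SD. The values rest on up to 1088 counts in the day 7 injured libraries and on 41 to 163 counts in the others.

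miR-34b-5p, which carries the same seed as miR-34a-5p, was at 27.6, 42.6 and 46.8 CPM in day 7 injured libraries. The naïve libraries had a lowest level of 2.46, a median of 5.97 and a highest level of 12.0 CPM. The contralateral libraries were at 6.41, 6.91 and 12.1 CPM at day 1 and at 4.17, 11.2 and 13.05 CPM at day 7, and day 1 injured libraries at 5.83, 5.86 and 6.79 CPM. As with miR-34c-5p, the day 7 injured libraries lay above all others and the remaining groups overlapped. The group means were 39.0 ± 10.1 CPM (SD, n = 3) in day 7 injured, 9.48 ± 4.69 (n = 3) in day 7 contralateral, 8.46 ± 3.13 (n = 3) in day 1 contralateral, 6.17 ± 3.44 (n = 6) in naïve and 6.16 ± 0.544 (n = 3) in day 1 injured cartilage. These levels correspond to at least 31 counts in each day 7 injured library and to 4 to 27 counts in the others.

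miR-34b-3p, the other strand of the same hairpin, was at 32.97, 42.1 and 47.8 CPM in day 7 injured libraries. Its naïve libraries ran from 6.14 through a median of 7.78 to 12.8 CPM. Day 1 injured libraries were at 3.40, 3.66 and 5.03 CPM, below every naïve library. Day 1 contralateral libraries were at 3.95, 8.73 and 14.7 CPM and day 7 contralateral libraries at 2.06, 8.35 and 8.73 CPM, and both groups overlapped with the naïve and the day 1 injured libraries. The means, in order, were 41.0 ± 7.49 CPM (SD, n = 3) in day 7 injured, 9.14 ± 5.41 (n = 3) in day 1 contralateral, 8.35 ± 2.32 (n = 6) in naïve, 6.38 ± 3.75 (n = 3) in day 7 contralateral and 4.03 ± 0.874 (n = 3) in day 1 injured cartilage. The lowest library, day 7 contralateral replicate 1, rests on 3 counts.

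miR-34c-3p, the minor strand of its hairpin, was at 12.4, 13.1 and 14.3 CPM in day 7 injured libraries, from 9, 29 and 43 counts. The highest of the other libraries was day 1 injured replicate 2, at 8.38 CPM from 10 counts. The other 2 day 1 injured libraries had 1 and 0 counts, where a count of 0 allows up to 1.46 CPM (3 counts). Naïve libraries lay between 1.26 and 4.88 CPM with a median of 2.51, day 1 contralateral libraries at 0.493, 1.82 and 4.69 CPM and day 7 contralateral libraries at 1.83, 2.50 and 3.43 CPM. The day 7 injured libraries again lay above all others, but at 0 to 11 counts per library the remaining groups could not be resolved from each other.

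miR-34a-5p, the family member most often studied as a p53 target, had a different profile from the arms of the other locus. It was at 26.1, 27.6 and 31.6 CPM in day 7 injured libraries, a range that lay above the naïve libraries (8.54 to 21.04 CPM, median 16.7) and above the day 1 injured libraries (10.1, 20.4 and 20.9 CPM). It overlapped with the day 1 contralateral libraries (12.8, 20.1 and 28.4 CPM) and with the day 7 contralateral libraries (11.2, 20.4 and 47.4 CPM). The highest library of all was day 7 contralateral replicate 1. The means were 28.4 ± 2.81 CPM (SD, n = 3) in day 7 injured, 26.3 ± 18.8 (n = 3) in day 7 contralateral, 20.4 ± 7.79 (n = 3) in day 1 contralateral, 17.1 ± 6.11 (n = 3) in day 1 injured and 15.4 ± 5.41 (n = 6) in naïve cartilage, and each mean lay within 1 SD of the next in that order when the larger SD of the neighbours was taken.

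**Figure D1:**
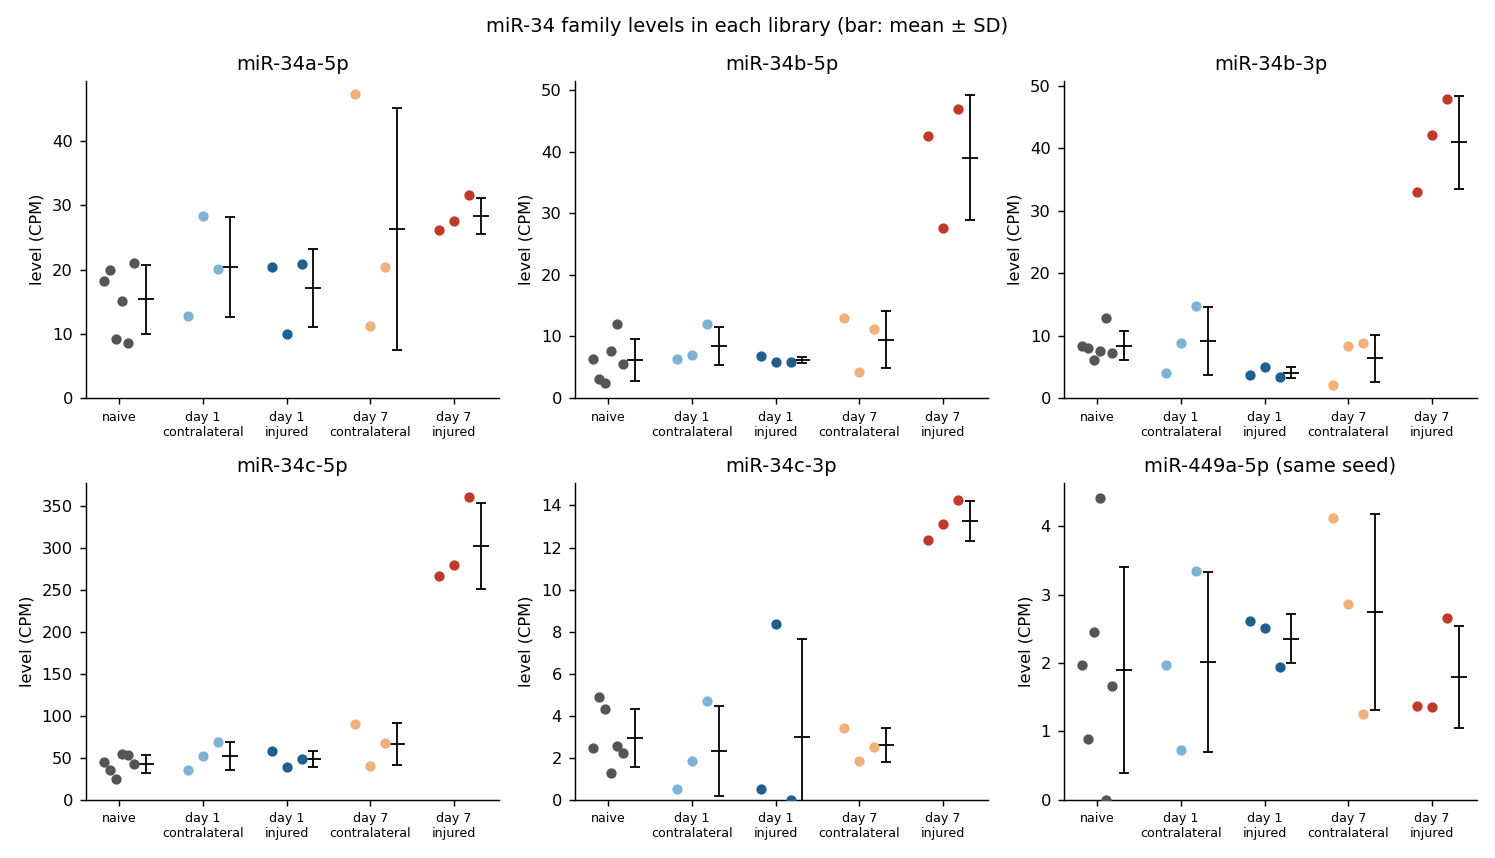
Level of each miR-34 arm, and of miR-449a-5p, in each of the 18 libraries by group (CPM, linear axes that start at 0 and differ between panels). Points are libraries and bars are the mean ± SD of the group, drawn only above 0; the 4 arms of the miR-34b/c locus have all 3 day 7 injured libraries above every other library, while miR-34a-5p and miR-449a-5p do not.

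Day 7 injured cartilage was compared with naïve cartilage, with the contralateral knee of the same day and with injured cartilage of day 1. These comparisons chose the family, and they share the day 7 injured libraries, so the values are descriptive. In limma-voom with Benjamini-Hochberg adjustment, 4 of the 5 arms were called higher against naïve cartilage, where 14.5% of all tested miRNAs were called higher. The same 4 arms, all of the miR-34b/c locus, were called higher against the contralateral knee (13.8% of all miRNAs) and against day 1 injured cartilage (12.1% of all miRNAs). miR-34a-5p was called in none of these comparisons.

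Against naïve cartilage, the log2 fold change of miR-34c-5p was 2.86 ± 0.29 (SE), which is 7.25-fold. It was 2.79 ± 0.39 for miR-34b-5p, 2.34 ± 0.34 for miR-34b-3p and 2.17 ± 0.58 for miR-34c-3p, or 6.93-, 5.05- and 4.48-fold. For miR-34a-5p it was 0.94 ± 0.40, or 1.92-fold. The median over the 5 arms was 2.34, beside a median of -0.00 over the 428 miRNAs. The levels of all 5 arms did not overlap between day 7 injured and naïve libraries, which was so, in the higher direction, for 15.4% of all miRNAs.

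Against the day 7 contralateral knee, the log2 fold changes were 2.72 ± 0.42 (SE) for miR-34b-3p, 2.43 ± 0.68 for miR-34c-3p, 2.27 ± 0.32 for miR-34c-5p and 2.25 ± 0.43 for miR-34b-5p. The value for miR-34a-5p was 0.48 ± 0.44, and it became 1.04 without day 7 contralateral replicate 1. The 4 miR-34b/c arms did not overlap between the groups, as was so for 17.5% of all miRNAs in the higher direction, and miR-34a-5p did overlap. The call of miR-34c-3p was lost without day 7 contralateral replicate 2, with a log2 fold change of 2.20.

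From day 1 to day 7 in the injured knee, the log2 fold changes were 3.53 ± 0.77 (SE) for miR-34c-3p, 3.33 ± 0.48 for miR-34b-3p, 2.64 ± 0.33 for miR-34c-5p and 2.56 ± 0.48 for miR-34b-5p, and 0.77 ± 0.47 for miR-34a-5p. The value for miR-34c-3p, with 0, 1 and 10 counts at day 1, ran from 2.41 to 5.10 over the alternative analyses. All 5 arms lay without overlap above day 1 injured libraries, as did 18.7% of all miRNAs. The injury effect, injured against contralateral, at day 7 minus that at day 1 was 3.66 ± 0.67 (log2, SE) for miR-34b-3p, 3.14 ± 1.14 for miR-34c-3p, 2.57 ± 0.68 for miR-34b-5p, 2.33 ± 0.47 for miR-34c-5p and 0.71 ± 0.65 for miR-34a-5p. In this difference 3 of the 5 arms were called (miR-34b-3p, miR-34b-5p and miR-34c-5p), beside 6.78% of all miRNAs.

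Marker miRNAs of cell types were also compared between these groups. The summed level of the 4 listed erythroid miRNAs, miR-451a, miR-144-3p, miR-144-5p and miR-486a-5p, all present in every library, was 3081.4 to 4150.3 CPM in day 7 injured libraries. It was 5986 to 7928 CPM in naïve, 7433 to 8190 CPM in day 1 contralateral, 5969 to 9255 CPM in day 1 injured and 5464 to 8177 CPM in day 7 contralateral libraries. Of these, miR-486a-5p was called lower than in naïve cartilage, by a log2 difference of -1.22 ± 0.24 (SE), while miR-451a (-0.25 ± 0.37), miR-144-3p (-0.01 ± 0.41) and miR-144-5p (-0.46 ± 0.33) were not called. The summed level of 6 of 6 leukocyte miRNAs overlapped between day 7 injured (8002 to 9478 CPM) and naïve libraries (6447 to 10851 CPM), as did that of 4 of 4 vascular miRNAs (74002 to 80724 and 48221 to 83023 CPM) and of 4 of 4 cartilage miRNAs (6756 to 9983 and 6172 to 10499 CPM). Within the leukocyte list, miR-150-5p was called lower than in naïve cartilage (-1.54 ± 0.36, log2, SE), as were 3.74% of all miRNAs. The other leukocyte miRNAs listed were not called there. miR-150-5p was also called lower than in day 1 injured cartilage (-1.53 ± 0.41 SE), as were 3.50% of all miRNAs. The summed level of the muscle miRNAs was 136690 to 249860 CPM in day 7 contralateral libraries, all of them above the day 7 injured libraries, whereas the day 1 groups overlapped with both. The part of these cell types in the family's levels was not tested. In pooled tissue, more cells with the miRNA and more of it per cell cannot be told apart.

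**Figure D2:**
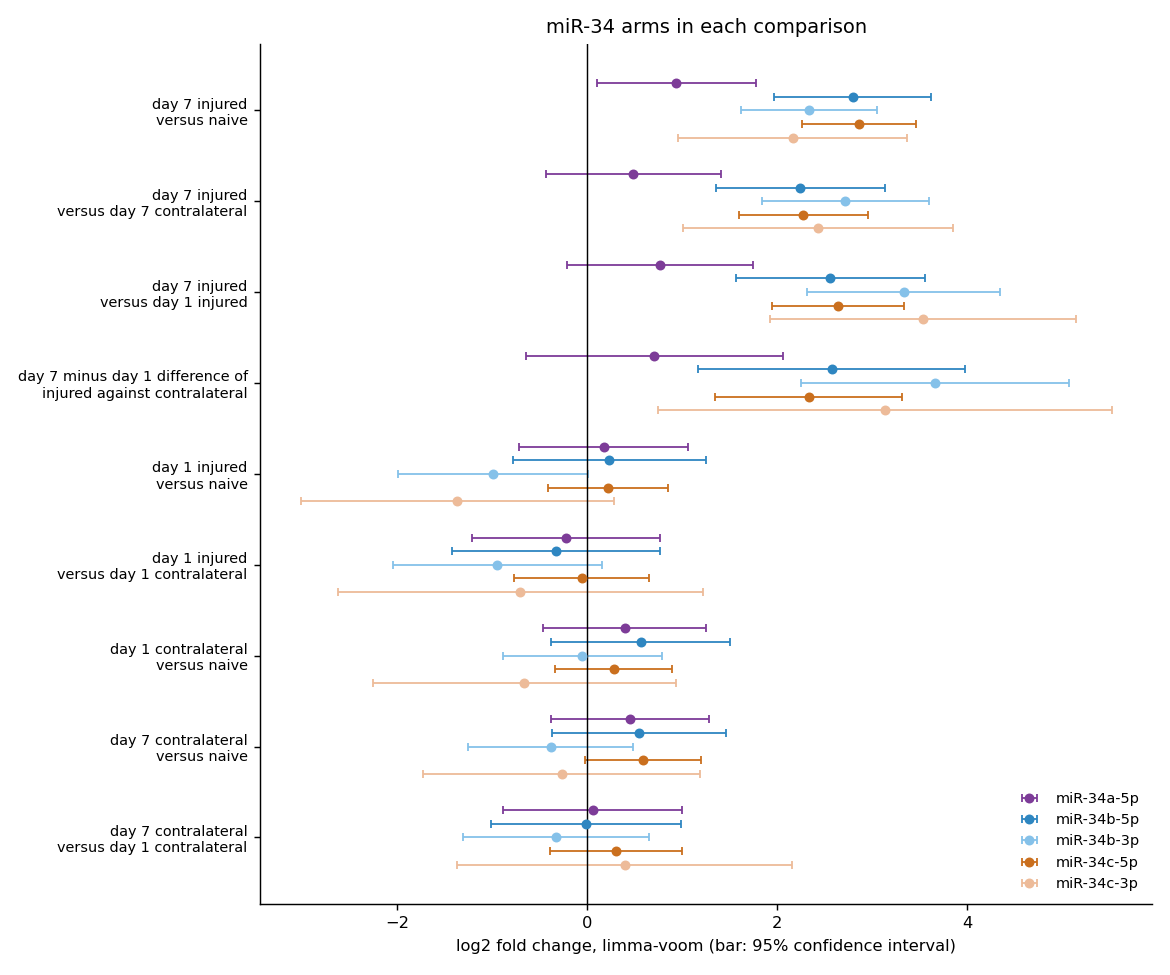
Log2 fold change of each miR-34 arm in each comparison (points) with its 95% confidence interval from limma-voom (bars), the upper 4 comparisons being descriptive because they involve the day 7 injured libraries that chose the family. In these the miR-34b/c arms lie between 2.17 and 3.66 and miR-34a-5p between 0.48 and 0.94, whereas the intervals of all arms include 0 in the 5 comparisons among the other groups.

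The remaining comparisons asked whether the family had changed at day 1, or in the uninjured knee. They leave out the day 7 injured libraries, but reuse libraries that were the references when the family was chosen. Their tests are thus not fully independent of that choice. No arm passed the test in any of the 5 comparisons, and no other miRNA did in limma-voom (0 of 428, so 0% of all miRNAs were called in either direction, with 8, 8, 4, 23 and 25 miRNAs at an unadjusted p under 0.05 in day 1 injured against naïve, day 1 injured against day 1 contralateral, day 1 contralateral against naïve, day 7 contralateral against naïve and day 7 contralateral against day 1 contralateral). edgeR's quasi-likelihood test also called none, and DESeq2's Wald test called 1 miRNA in day 7 contralateral against naïve and 2 in day 7 contralateral against day 1 contralateral, none of them a family arm. A difference of the family in the injured knee at day 1 was thus not detected with these pools.

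In day 1 injured against naïve cartilage, miR-34c-5p changed by 0.22 ± 0.30 (log2, SE), with a 95% confidence interval from -0.41 to 0.85 and a limma-voom adjusted p = 0.992. Its interval leaves out a change as large as the 2.86 of day 7. The values were 0.24 ± 0.49 for miR-34b-5p (interval -0.78 to 1.25) and 0.17 ± 0.43 for miR-34a-5p (interval -0.72 to 1.06). The 3p arms lay on the other side of 0, at -0.99 ± 0.48 for miR-34b-3p (interval -1.99 to 0.01, limma-voom adjusted p = 0.992) and -1.37 ± 0.79 for miR-34c-3p (interval -3.01 to 0.28). For miR-34b-3p the 3 day 1 injured libraries lay below all 6 naïve libraries, as was so for 0.935% of all miRNAs, and its difference did not pass the adjusted test.

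Against the day 1 contralateral knee, all 5 arms of day 1 injured cartilage had log2 fold changes below 0, from -0.06 ± 0.34 (SE) for miR-34c-5p to -0.94 ± 0.53 for miR-34b-3p, none past the test (limma-voom adjusted p = 0.997 for each). The contralateral knee was also compared with naïve cartilage, to ask whether the uninjured knee differed from one of an unloaded mouse. The family value farthest from 0 was that of miR-34c-3p at day 1, -0.66 ± 0.76 (interval -2.26 to 0.93, limma-voom adjusted p = 0.996), from 1 to 11 counts per library. miR-34c-5p was at 0.59 ± 0.29 at day 7 (interval -0.02 to 1.19, limma-voom adjusted p = 0.675), and it became 0.31 without day 7 contralateral replicate 1. miR-34a-5p was at 0.46 ± 0.40 at day 7, and at -0.07 without that library. From day 1 to day 7 the contralateral knee gave values between -0.33 (miR-34b-3p) and 0.40 (miR-34c-3p).

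The loci were then compared within each library, as the ratio of the summed level of the 4 miR-34b/c arms to that of miR-34a-5p (0.5 CPM added to each). The ratio was 12.9, 13.3 and 14.7 in the day 7 injured libraries. In naïve libraries it ran from 2.56 through a median of 3.66 to 9.03. It was 2.70, 3.33 and 5.52 in day 1 injured, 2.44, 3.52 and 4.90 in day 1 contralateral and 2.29, 4.35 and 4.70 in day 7 contralateral libraries. Every library thus held more reads of the miR-34b/c locus than of miR-34a-5p, and the 3 day 7 injured libraries were close to each other and above all others. The highest naïve library, replicate 5, had 10 counts of miR-34a-5p.

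On the log2 scale the ratio had a mean of 3.77 ± 0.10 (SD, n = 3) in day 7 injured and of 1.98 ± 0.67 (SD, n = 6) in naïve cartilage, a difference of 1.79. The difference was 1.92 to day 7 contralateral cartilage and 1.89 to day 1 injured cartilage. Among the groups other than day 7 injured, the means beside the naïve one were 1.88 ± 0.53 (n = 3) in day 1 injured, 1.80 ± 0.50 (n = 3) in day 1 contralateral and 1.85 ± 0.57 (n = 3) in day 7 contralateral cartilage. In the exact two-sided permutation tests of the 5 comparisons among these groups, the differences lay between -0.18 and 0.08, p between 0.726 and 1, with an adjusted p = 1 for each. The smallest p that these tests allow is 0.0119 against the 6 naïve libraries and 0.1 for 3 against 3 libraries. The tests treat the naïve libraries as independent, although by the study's count of mice they were not. They also leave out the pairing of injured and contralateral knees of the same mice.

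**Figure D3:**
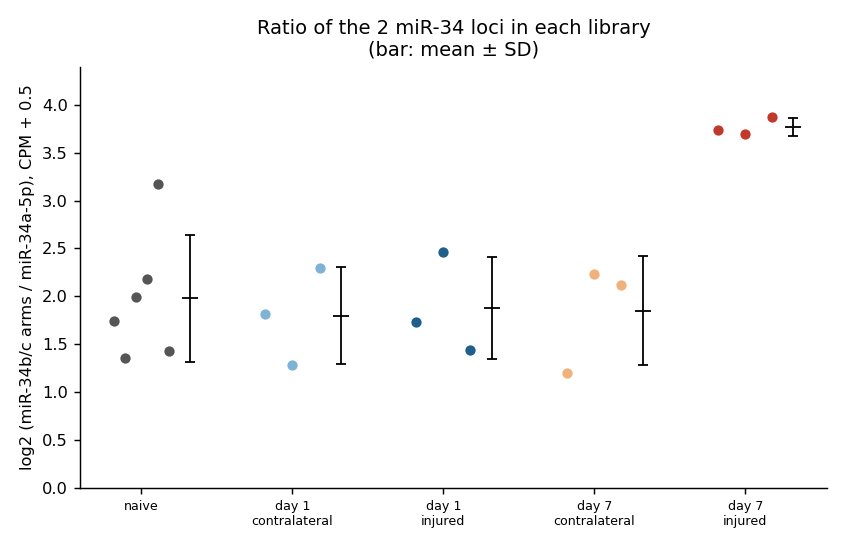
Log2 ratio of the summed level of the 4 miR-34b/c arms to the level of miR-34a-5p (CPM, 0.5 added to each) in each library by group. Points are libraries and bars the mean ± SD; the day 7 injured libraries lie between 3.69 and 3.88 and the other 15 libraries between 1.20 and 3.17.

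The change in the ratio can be restated as shares of the family's reads. These rest on the same counts and are not a second result. miR-34a-5p made up 20.6% ± 6.73 (SD, n = 6) of the counts of the 5 arms in naïve cartilage and 6.74% ± 0.408 (SD, n = 3) at day 7 after injury. miR-34c-5p made up 56.1% ± 4.80 (SD, n = 6) and 71.2% ± 1.06 (SD, n = 3). The summed level of the 5 arms was 75.6 ± 15.1 CPM (SD, n = 6) in naïve and 424 ± 67.4 CPM (SD, n = 3) in day 7 injured cartilage. miR-34b-5p made up 7.78% ± 3.20 (SD, n = 6) and 9.20% ± 2.06 (SD, n = 3), and miR-34b-3p 11.1% ± 2.15 (SD, n = 6) and 9.66% ± 1.07 (SD, n = 3), so that their shares overlapped within 1 SD.

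The balance of the arms of each hairpin was examined next, as the share of a hairpin's counts that came from the 5p arm. The treatment of reads with more than 1 matching mature sequence is not given in the sources used here, and the 5p arms of miR-34b and miR-34c are similar, so the division of reads between these arms is uncertain. No family arm had the same count as another miRNA in every library. Intervals cover counting error only, since reads amplified by PCR are not independent molecules.

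The miR-34c hairpin was read almost entirely from its 5p arm. The 5p share was 95.5%, 95.6% and 96.2% in day 7 injured libraries, the last with an exact 95% binomial interval from 94.9% to 97.2%. It was 85.4% to 97.7% in naïve libraries (median 94.9%), 95.7%, 96.4% and 96.5% in day 7 contralateral, 93.6%, 96.6% and 98.6% in day 1 contralateral and 82.1%, 99.1% and 100% in day 1 injured libraries. The day 7 injured libraries thus lay within the range of the naïve libraries.

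The miR-34b hairpin gave reads from both arms in like amounts. The 5p share was 39.6%, 49.5% and 56.4% in day 7 injured libraries, with an exact 95% binomial interval from 43.5% to 55.4% in the deepest of them, replicate 3. It ran from 28% through a median of 43.4% to 50.0% in naïve libraries and was 44.2%, 45.0% and 61.9% in day 1 contralateral libraries. It was 53.8%, 63.2% and 65.0% in day 1 injured libraries, above every naïve library. Day 7 contralateral libraries were spread most widely, at 33.3%, 56.3% and 86.4%, the last being replicate 1 (19 of 22 counts, interval from 65.1% to 97.1%).

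In day 1 injured against naïve cartilage, the 5p share of miR-34b was 60.7% ± 5.98 (SD, n = 3) against 40.3% ± 9.65 (SD, n = 6), an exact two-sided permutation p = 0.0357. Adjusted over the 10 exact permutation tests of arm shares, p = 0.357, so the difference did not pass. Both values treat naïve libraries as independent, although by the study's count of mice they were not. Each of the day 1 injured values rests on 13 to 20 counts, and their intervals overlap with those of the naïve libraries. Of 111 hairpins with both arms tested, 1.80% had a 5p to 3p ratio higher without overlap in day 1 injured than in naïve libraries, miR-34b among them. In the other 9 tests the unadjusted exact permutation p lay between 0.155 and 1.

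**Figure D4:**
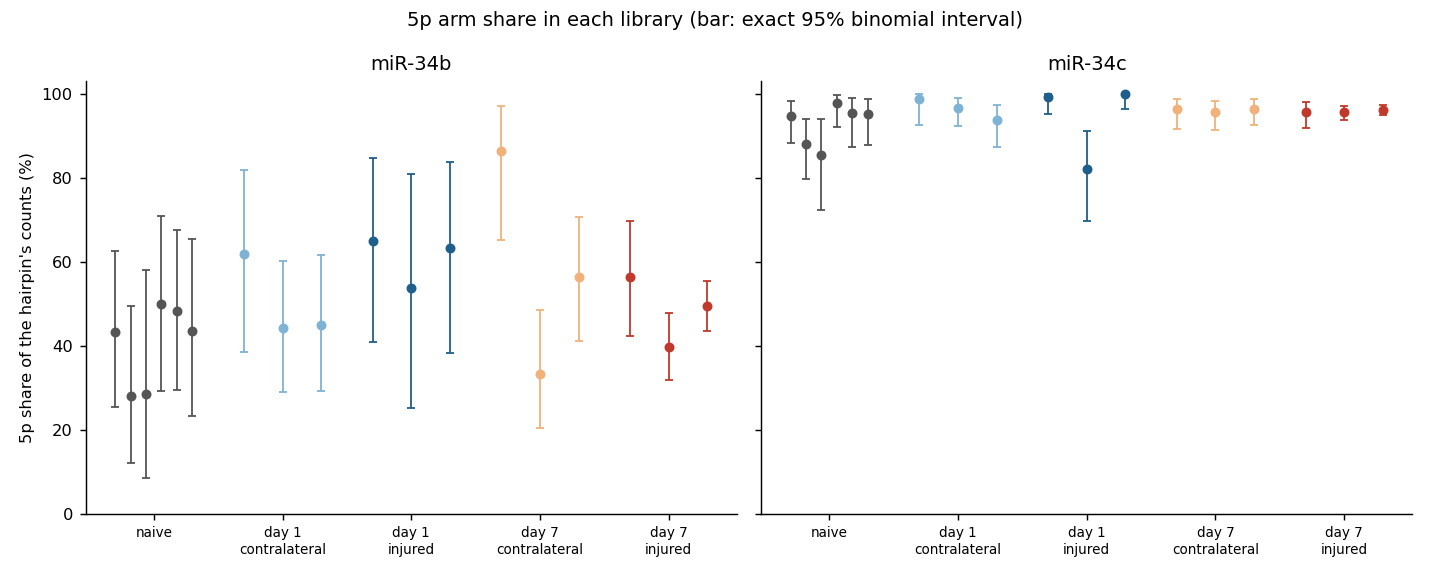
Share of each hairpin's counts that came from the 5p arm (percent) in each library, for miR-34b (left) and miR-34c (right), with exact 95% binomial intervals as bars. miR-34c lies between 82.1% and 100% in all libraries, and miR-34b between 28% and 86.4% with wide intervals outside the day 7 injured group.

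To ask whether the arms vary together where no injury response chose them, deviations of log2 CPM from the group mean were correlated over the 15 libraries other than day 7 injured, for the 10 pairs of arms. miR-34b-5p and miR-34c-5p varied together, with Pearson's r = 0.89 (permutation p = 4e-05, adjusted p = 0.0004) and Spearman's rho = 0.92 (permutation p = 4e-05, adjusted p = 0.0004). Without the 2 libraries farthest from the median of miR-34b-5p, r was 0.89, and it was 0.88 without day 7 contralateral replicate 1. These libraries share their depth and scaling factor between arms, the labels name no batch, and r was 0.94 on library totals without TMM. The assignment of reads to miR-34b-5p and miR-34c-5p is uncertain, because their sequences are similar and the treatment of reads matching both is not given. Such reads may have been counted for both arms. Their part in the correlation was not tested.

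No other pair passed the test. miR-34a-5p and miR-34c-5p had r = 0.60 (permutation p = 0.0629, adjusted p = 0.314) and rho = 0.38 (permutation p = 0.263, adjusted p = 0.657), with r = 0.39 without the 2 farthest libraries and 0.47 without day 7 contralateral replicate 1. The pairs of arms from 1 hairpin did not pass either. miR-34b-5p and miR-34b-3p had r = 0.17 (permutation p = 0.648, adjusted p = 0.901) and rho = 0.29 (permutation p = 0.379, adjusted p = 0.758), and r = 0.58 without day 7 contralateral replicate 1. For miR-34c-5p and miR-34c-3p r was -0.07 (permutation p = 0.785, adjusted p = 0.901) and rho 0.05 (permutation p = 0.876, adjusted p = 0.886). The 3p arms rest on 0 to 32 counts in these libraries, so a relation with them may not be detectable at this depth.

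**Figure D5:**
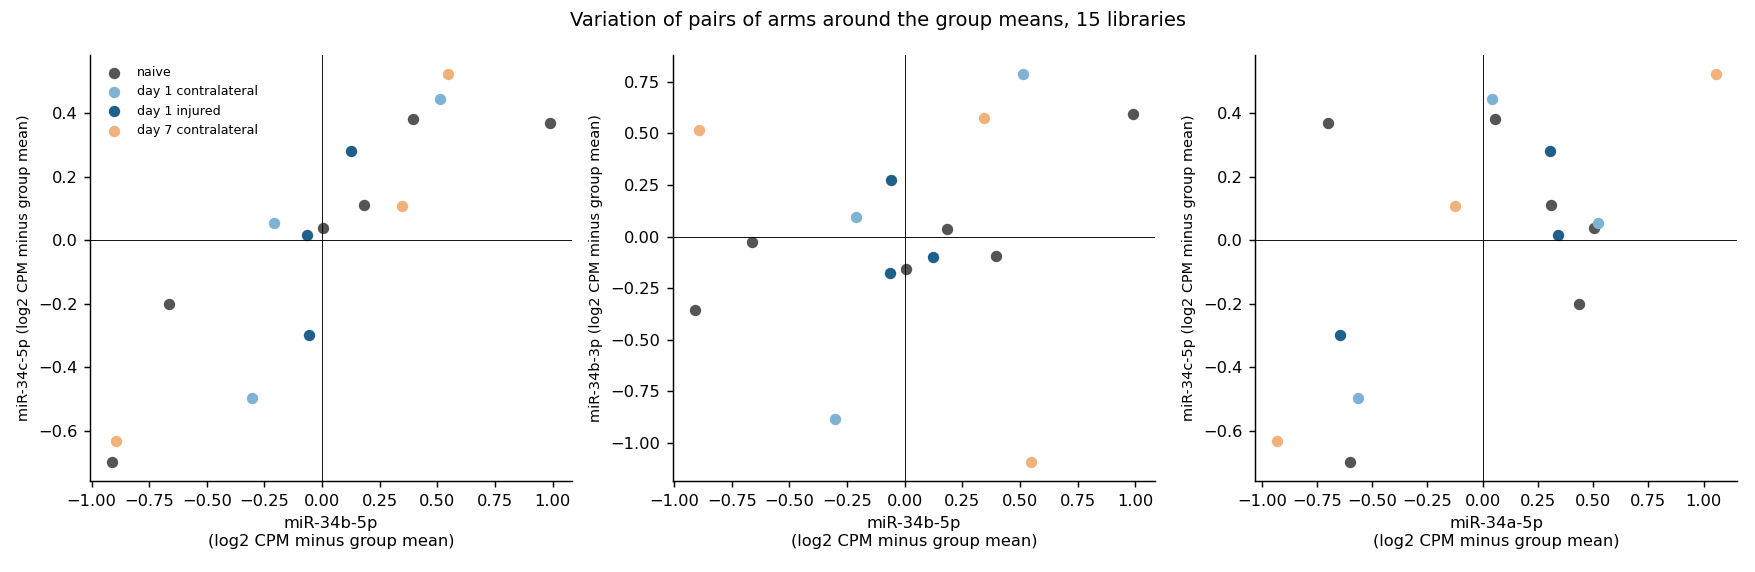
Deviation of log2 CPM from the group mean for 3 pairs of arms in the 15 libraries other than day 7 injured, coloured by group. miR-34b-5p and miR-34c-5p (left) rise together (r = 0.89), whereas miR-34b-5p with miR-34b-3p (middle, r = 0.17) and miR-34a-5p with miR-34c-5p (right, r = 0.60) did not pass the adjusted permutation test.

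miR-449a-5p, which shares the seed of the family and is a marker of multiciliated cells, was the miRNA outside the family found with that seed among the miRNAs of the table that have a RefSeq sequence. It had 0 to 11 counts per library and did not pass the filter on low counts. Its level was 1.36, 1.37 and 2.66 CPM in day 7 injured libraries and ran from 0 through a median of 1.82 to 4.42 CPM in naïve libraries, where the 0 (replicate 5) allows up to 2.56 CPM (3 counts). The day 7 injured libraries lay within the range of the naïve libraries, and 1 of the 3 listed multiciliated miRNAs was in the table.

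Other miRNAs known to be raised by p53 or processed under its influence were followed as a list of 11, of which 10 were in the table and 8 were tested. None of the 8 was called higher in any comparison. The shares of all miRNAs called higher at day 7 after injury were 14.5% against naïve, 13.8% against contralateral and 12.1% against day 1 injured cartilage. The share was 6.78% in the day 7 minus day 1 difference, and limma-voom called no miRNA in the remaining comparisons. At these shares a list of 8 can lack a higher call by chance, and the activity of p53 was not tested. The median log2 fold change of the 8 in day 7 injured against naïve cartilage was -0.27, with a range from -0.98 to 0.19, beside the median of -0.00 over all miRNAs. Against the day 7 contralateral knee it was -0.26 (all miRNAs -0.05), and against day 1 injured cartilage -0.17 (all miRNAs -0.07).

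The members of that list that were called had lower levels at day 7. These calls also involve the day 7 injured libraries, so they are given as descriptions. miR-200c-3p, an epithelial miRNA, was at 123.6 ± 21.8 CPM (SD, n = 6) in naïve and at 64.9 ± 19.4 CPM (SD, n = 3) in day 7 injured cartilage, a log2 difference of -0.98 ± 0.30 (SE), and it was called lower than in the contralateral knee as well (-1.10 ± 0.35 SE). miR-107-3p, from an intron of the pantothenate kinase gene Pank1, was at 379.97 ± 50.7 CPM (SD, n = 6) in naïve and at 231.6 ± 27.97 CPM (SD, n = 3) in day 7 injured cartilage, a log2 difference of -0.71 ± 0.20 (SE), and it was also called lower than in day 1 injured cartilage (-0.70 ± 0.23 SE). Against naïve cartilage the call of miR-107-3p held in 14 of 17 alternative analyses and was lost without day 7 injured replicate 1 (-0.59) or replicate 3 (-0.64), and that of miR-200c-3p held in 9 of 17, with -0.65 without day 7 injured replicate 3. The call of miR-200c-3p against the contralateral knee held in 4 of 14 alternatives, and that of miR-107-3p against day 1 injured cartilage in 3 of 14. Lower was the direction of call for 3.74%, 0.935% and 3.50% of all miRNAs against naïve, contralateral and day 1 injured cartilage. The most abundant members, miR-143-3p and miR-16-5p, were at 0.19 ± 0.29 and -0.23 ± 0.27 against naïve cartilage, neither called.

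The miRNAs whose profile was most like that of the miR-34b/c locus were sought among the miRNAs outside the family with a mean of at least 10 CPM, by Pearson's r of log2 CPM with the mean of the 4 arms. Over all 18 libraries these were miR-134-5p (r = 0.93), miR-541-5p (r = 0.89) and miR-379-3p (r = 0.88), beside a median r of -0.06 over the candidates. All 3 lie on the plus strand of chromosome 12, between positions 109709102 and 109742446. miR-134-5p, for example, was at 48.6 ± 4.53 CPM (SD, n = 6) in naïve, 43.2 ± 12.6 CPM (SD, n = 3) in day 7 contralateral and 229 ± 26.6 CPM (SD, n = 3) in day 7 injured cartilage. For miR-34a-5p they were miR-199b-5p (r = 0.80), miR-872-5p (r = 0.78) and miR-196b-5p (r = 0.77), none of them shared with the miR-34b/c locus. Without day 7 contralateral replicate 1 these values were 0.74, 0.80 and 0.71, so that their order changed, and those for the miR-34b/c locus were 0.93, 0.90 and 0.92. These correlations are descriptions, and those for miR-34b/c rest on the day 7 injured libraries.

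Within groups, over the 15 libraries other than day 7 injured, the nearest profiles were others. For the miR-34b/c arms they were miR-191-3p (r = 0.73), miR-221-5p (r = 0.72) and miR-3535 (r = 0.67). For miR-34a-5p they were miR-199b-5p (r = 0.88), miR-203-3p (r = 0.87) and miR-1a-1-5p (r = 0.87), and without day 7 contralateral replicate 1 these were 0.83, 0.83 and 0.80. None of miR-134-5p, miR-541-5p and miR-379-3p was among the 3 nearest within groups. miR-203-3p also lies on chromosome 12, but at position 112130927.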

How the data were processed

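Small RNA was sequenced from 18 libraries of pooled mouse cartilage. Per the study's methods the authors ran the nf-core small RNA pipeline (GRCm38), with adapter trimming by Trim Galore 0.6.6, alignment to mature miRBase sequences by Bowtie 1.3.0 and counting by SAMtools 1.12, and the deposited values are raw counts per mature miRNA and library. Rows were matched to samples by library number, since the prefix before it differs between the table and the titles. Replicates differed by more than counting noise (chi-square per degree of freedom at least 49.1 over 27 pairs).

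miRNAs were filtered with filterByExpr of edgeR 4.0.16 (minimum count 10, minimum total 15), scaled by TMM and fitted with limma 3.58.1 (voom, 1 mean per group, all 18 libraries, R 4.3.3), with Benjamini-Hochberg adjustment within a comparison and a threshold of 0.05. The study modelled shared mouse pools, which the labels do not identify, so no such term was fitted. The procedure was tested on simulated data. log2 CPM for correlations used a prior count of 2, and permutations numbered 100000, within groups. The precision of low arms is set by totals of 758388 to 4088852 counts per library. Mature sequences and positions came from RefSeq (GRCm38.p6), overlapping genes from GENCODE.

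The family, the marker and p53 lists and the tests were chosen with earlier results of these data known. Named miRNAs were the 5 arms, miR-34a-3p, miRNAs with the miR-34a-5p seed, the p53 list members called or among the 2 most abundant, and the 3 most alike of each kind. Alternatives were DESeq2 size factors, library totals, other count filters, edgeR's quasi-likelihood test, the Wald test of DESeq2 1.42.0, voomWithQualityWeights, fits of the compared groups alone, other forms of the locus ratio and leaving out each library. Correlations without day 7 contralateral replicate 1 were added after seeing the data. Python 3.11.15, scipy 1.17.1 and matplotlib 3.10.9 were used.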

Additional observations from a re-analysis of the deposited data

Results flagged for a closer look

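The injury effect, injured against contralateral, differed between day 7 and day 1 for 3 arms in limma-voom's interaction term. The difference was 3.66 (log2) for miR-34b-3p, 2.57 for miR-34b-5p and 2.33 for miR-34c-5p, beside 6.78% of all tested miRNAs called. The family was chosen with the day 7 injured values known, so these values describe it and support nothing beyond that.

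Among the 6 naïve libraries, the highest level of miR-34b-3p, 12.8 CPM in replicate 5 from 15 counts, stood away from the others (6.14 to 8.37 CPM) by more than Dixon's 95% critical value for 6 samples. This was 1 of 8 such checks, and chance alone sets apart about 1 group in 20. The same library had the lowest level of miR-34a-5p, 8.54 CPM. The cause was not tested.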

How the results depend on the processing

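No paired analysis was possible because the replicate numbers follow accession order and no label ties a library to its mouse pool. The filter of at least 10 counts in every library removed miR-34b-5p, miR-34b-3p and miR-34c-3p, which so have no value under it. For the 4 miR-34b/c arms, every other alternative gave a positive log2 fold change in the comparisons of day 7 injured libraries with naïve, contralateral and day 1 injured cartilage, and all calls stayed except that of miR-34c-3p against the contralateral knee without day 7 contralateral replicate 2. miR-34a-5p was called against naïve cartilage with voomWithQualityWeights (log2 fold change 0.77) and with only the groups compared (0.94), in 2 of 17 alternatives. In the day 7 minus day 1 difference, miR-34b-5p lost its call in 5 of 19 alternatives and miR-34c-3p gained one in 3 of 19. No arm was called under any alternative that gave it a value in the 5 comparisons among the other groups, although the sign of small values changed.

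Of all miRNAs, 62 were called higher and 16 lower against naïve, 59 and 4 against the contralateral knee, and 52 and 15 against day 1 injured cartilage. Requiring at least 10 counts in every library, which removes low miRNAs, gave 35 higher and 13 lower against naïve, 38 and 0 against the contralateral knee, and 9 lower against day 1 injured cartilage. Keeping every miRNA with at least 1 count, which adds tests, gave 8, 2 and 9 lower. voomWithQualityWeights gave 55 lower against naïve, 41 against day 1 injured cartilage and 3 in the day 7 minus day 1 difference, where limma-voom gave 0. With only the groups compared there were 28 lower against naïve and 1 against the contralateral knee. Library totals gave 0 lower against the contralateral knee and 3 against day 1 injured cartilage. edgeR's quasi-likelihood test gave 11 lower against the contralateral knee. DESeq2's Wald test gave 13 lower there and 23 against day 1 injured cartilage, and called 1 miRNA higher in day 7 contralateral against naïve and 2 higher against day 1 contralateral cartilage, where limma-voom called 0. The cause was not tested. Without single libraries the lower calls ran from 3 to 16, from 0 to 8 and from 2 to 11 in these comparisons and from 0 to 2 in the day 7 minus day 1 difference, and were 3, 0 and 2 without day 7 injured replicate 3.

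The locus ratio of day 7 injured libraries stayed above that of naïve libraries by 1.66 to 2.03 (log2) without single libraries, and the tests of ratios, arm shares and correlations kept their side of the threshold. Depth limits the 3p arms most, with 0 to 32 counts in libraries other than day 7 injured.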
